A study of Tetranychus urticae with 4 samples.

Results

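A set of 153 genes of the two-spotted spider mite Tetranychus urticae was read in every intact-body library and not once in the library made from the front of the body. The genes were chosen by their counts: 0 reads in the proterosoma library and at least 10 reads in each of the 3 whole-body libraries. They are 153 of 18020 gene identifiers in the count table, or 1.33% of the 11537 genes with at least 10 reads in every whole body. All animals were adult females of the London strain. Each whole-body library was made from 100 intact females, and the proterosoma library from the dissected front bodies of 250 females. The study compared the body with its front part to find genes enriched in the salivary glands. The genes described here lie at the other end of that comparison.

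The proterosoma is the front part of a mite's body, with the mouthparts, the front legs, the salivary glands and the central nervous mass. The part behind it holds the ovary and most of the midgut. An adult female of this species is largely an egg-producing animal, and yolk-rich eggs mature in the hind part of the body. No library was made from the hind part alone, so its levels are known here only through intact bodies, which include the front. Fewer cells of a type in the front body and less RNA per cell cannot be told apart in these bulk samples. The reference gene table holds 0 of the 18020 identifiers, and no deposited file gives a gene name. The tissue labels could therefore not be checked against named marker genes, and no role is given to any gene below.

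Total counts were 11630954 to 23647775 reads in the whole-body libraries and 19667380 in the proterosoma library. No label states that the replicates were separate cultures, and p-values rest on a spread between samples that may be technical. The single proterosoma library has no replicate, and no value on that side has a replicate check.

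Levels are given as CPM, read counts put on the scale of 1 library size, adjusted by TMM, a method that lines up the bulk of the genes between libraries. A count of 0 allows up to 3 reads, which is 0.205 CPM in the proterosoma library. This limit covers counting error only, because the reads carry no molecular identifiers. It is a 95% limit for a single gene, so some of 153 genes chosen for a count of 0 may lie above it in the front body. The whole-body level divided by 0.205 CPM is the smallest fold the depth allows, and each "at least" fold below rests on this limit.

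The genes without a proterosoma read took few reads of the intact mite. Gene lengths are not in the files, so an order of genes by CPM is an order of reads and not of transcript numbers. Their whole-body mean ran from 0.698 to 27.8 CPM with a median of 1.85 CPM, while the median over all 11537 genes with at least 10 reads in every whole body was 23.6 CPM. Of the 153 genes, 125 lay under 4 CPM, 20 reached 5 CPM, 10 reached 10 CPM and 3 reached 20 CPM. Together they took 0.0559%, 0.0537% and 0.0541% of the reads of whole-body replicates 1, 2 and 3. These summed shares lay close together, at 0.0546% ± 0.00117 (SD, n = 3). The 12 most abundant genes made up 37.0% of the summed level of the set.

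**Figure D1:**
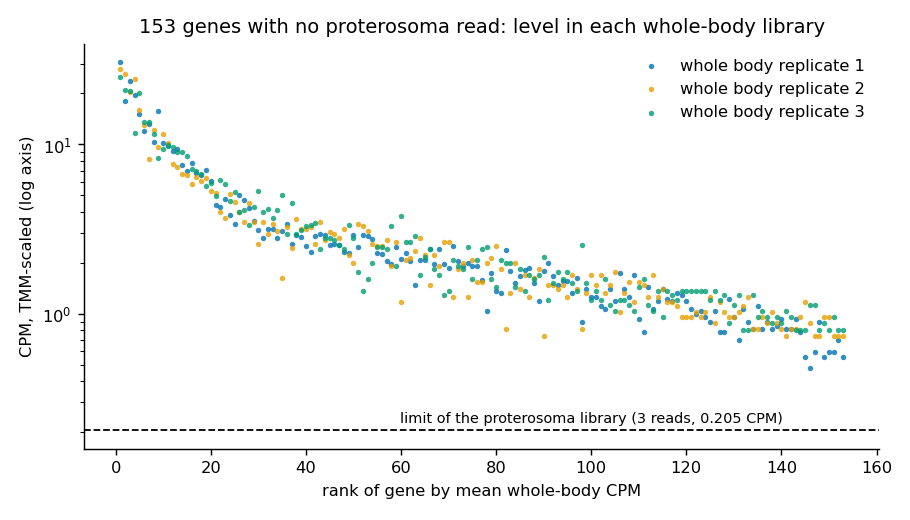
Level of each of the 153 genes in the 3 whole-body libraries, in CPM on a log axis, ordered by mean level; each point is 1 library. The dashed line is the 0.205 CPM that 3 proterosoma reads would give, and every whole-body point lies above it, as the choice of genes requires.

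The share of genes without a proterosoma read fell with each step up in whole-body level. It was 10.4% (22 of 212) among genes under 1 CPM, 6.33% (63 of 996) from 1 to 2 CPM and 3.65% (40 of 1095) from 2 to 4 CPM. It was 1.31% (15 of 1146) from 4 to 8 CPM, 0.571% (8 of 1400) from 8 to 16 CPM and 0.295% (5 of 1696) from 16 to 32 CPM. Above 32 CPM, all 4992 genes had at least 1 proterosoma read, and 38 of them had no more than 10. In these libraries a complete lack of proterosoma reads was thus found only below 32 CPM. At the same fold, a gene of low whole-body level is more readily left with 0 proterosoma reads. The fall is thus set in part by the choice of genes, and it does not show that genes depleted from the front body are rare ones.

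**Figure D2:**
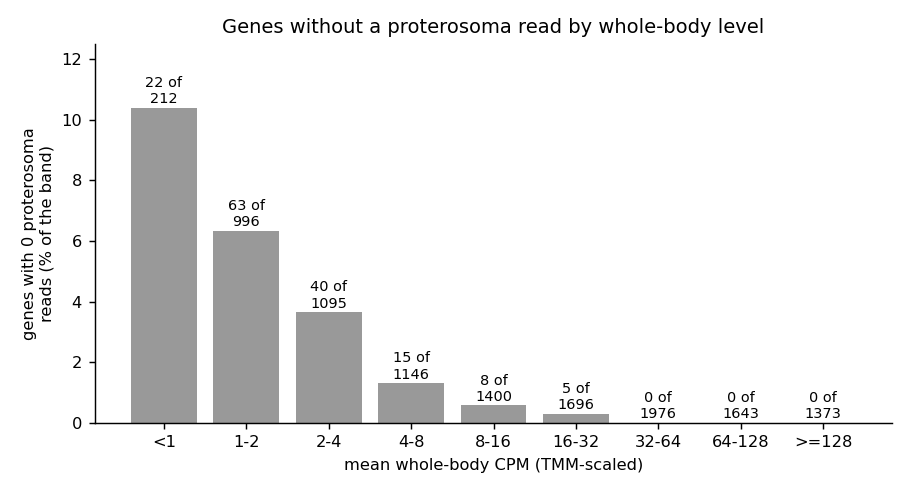
Percentage of genes with no proterosoma read in bands of mean whole-body CPM, among the 11537 genes with at least 10 reads in every whole body; the numbers of genes stand above the bars. The bars fall from 10.4% under 1 CPM to 0 of 4992 genes above 32 CPM. At the same fold, a count of 0 is reached more readily at a low whole-body level.

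The most abundant gene of the set, tetur03g05730, was read 824 times in replicate 1, 377 times in replicate 2 and 313 times in replicate 3. These counts correspond to 30.5, 27.8 and 25.1 CPM, so the whole bodies lay within 1.22-fold of each other. The gene was at least 136-fold lower in the front body, and at least 122-fold lower when its lowest whole-body library was used alone. It would have given about 407 proterosoma reads at an equal level.

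For tetur19g01070 the counts were 486, 353 and 263 in whole-body replicates 1, 2 and 3, or 18.0, 26.0 and 21.1 CPM. For tetur35g00770 they were 644, 277 and 258, or 23.9, 20.4 and 20.7 CPM. Both genes averaged 21.7 CPM and were at least 106-fold lower in the front body, but replicate 2 was the highest library for the first gene and the lowest for the second. These 3 genes were the only ones whose smallest fold passed 100 with TMM scaling.

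Next in level, tetur08g06890 had 532, 330 and 146 reads in replicates 1, 2 and 3, or 19.7, 24.3 and 11.7 CPM. Replicate 3 lay 2.08-fold below replicate 2 for this gene, a coefficient of variation (SD over mean) of 34.4% where counting error alone gives 5.85%. It was at least 90.6-fold lower in the front body from the mean, and at least 57.0-fold lower from replicate 3 alone. tetur08g01210, on the same scaffold, had 409, 216 and 250 reads, or 15.2, 15.9 and 20.04 CPM, and was at least 83.0-fold lower.

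The other 7 of the 12 most abundant genes averaged 8.84 to 12.9 CPM and were at least 43.1-fold to at least 62.7-fold lower in the front body. The even ones among them included tetur03g04840, with 322, 177 and 170 reads (11.9, 13.1 and 13.6 CPM), and tetur25g01780, with 278, 166 and 143 reads (10.3, 12.2 and 11.5 CPM). tetur02g02960 had 275, 157 and 117 reads, or 10.2, 11.6 and 9.38 CPM. tetur47g00220 had 247, 104 and 121 reads, or 9.15, 7.67 and 9.70 CPM. In these 4 genes no whole-body library stood apart by more than 1.27-fold from another. The remaining 3, tetur16g03740, tetur97g00020 and tetur26g02801, are described with the spread or the neighbouring genes below. The 12 genes lay on 10 different scaffolds.

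The other 141 genes had 10 to 255 reads in a whole-body library and means of up to 8.60 CPM, and their smallest fold had a median of 8.30. Nearest to the limit of the choice were tetur07g07780, with 15, 10 and 10 reads in replicates 1, 2 and 3, and tetur08g07730, with 19, 10 and 10 reads. tetur02g15175 had 16, 10 and 12 reads and tetur32g00730 had 16, 13 and 10. At such counts the data allow only a small fold: tetur07g07780 was at least 3.40-fold lower in the front body.

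Over all 153 genes the smallest fold had a median of 9.01 and ran from 3.40 to 136. It was at least 4 for 146 genes, at least 8 for 84, at least 16 for 34, at least 32 for 17 and at least 64 for 5. With library size alone in place of TMM, the median was 13.3 and 63 genes passed 16-fold, because TMM multiplies the proterosoma library size by 0.743 and the whole-body library sizes by 1.07 to 1.14. At an equal level in both body parts the genes would have given 10.2 to 407 proterosoma reads each, with a median of 27.0.

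The set does not hold the strongest depletion that the libraries measured. Of the 11384 genes with at least 1 proterosoma read and at least 10 reads in each whole body, 58 had a ratio of whole body to front body above 136. These 58 genes had a median of 7.50 proterosoma reads and whole-body means of 9.38 CPM or more. The largest measured ratio was 886, for a gene at 303 ± 18.7 CPM in whole bodies (SD, n = 3) with 5 proterosoma reads. The folds of the genes without a read are lower bounds, so the order of these genes and the 58 by true fold is not known.

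The boundary of the set was not a gap in the data. Just outside it, 100 genes had exactly 1 proterosoma read, 89 had 2 and 79 had 3, with median whole-body levels of 2.08, 1.98 and 2.32 CPM. On the other side of the limit, 55 genes with no proterosoma read had 7 to 9 reads in their lowest whole-body library, while 27 of the 153 genes had 10 to 12 there. The lowest count was in replicate 2 for 78 genes and in replicate 3 for 75, the shallower libraries, in which 10 reads mean 0.737 and 0.802 CPM against 0.370 CPM in replicate 1.

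Among the genes with a single proterosoma read were more abundant ones than any in the set. tetur17g03920 had 1215, 584 and 474 whole-body reads, or 45.0, 43.1 and 38.0 CPM, against 1 proterosoma read, a ratio of 614 with an exact Poisson 95% interval for that read of 110 to 24300. tetur11g00790 had 791, 399 and 417 whole-body reads and a ratio of 449 (80.6 to 17700). tetur28g02610 had 664, 352 and 369 and a ratio of 391 (70.1 to 15400). The intervals cover counting error of the proterosoma read only. Their lower ends lie below the bound of 136 reached within the set. That bound rests on a limit for the upper side alone, while each interval has a lower and an upper end. The limits are thus not like measures, and no order of these genes and the set is read from them.

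In the comparison of body parts, edgeR's quasi-likelihood test called all 153 genes lower in the proterosoma library (adjusted p under 0.05), against 40.4% of the 13278 genes tested. The authors' deposited table gave an adjusted p under 0.05 and a negative log2 fold for all 153 as well, against 30.9% of its 15877 genes. These calls follow from the choice of the genes, and nothing is read from them. In the authors' deposited table the log2 folds of the 153 genes ran from -8.87 to -4.30 with a median of -5.50, and their standard errors from 1.34 to 1.69. In the authors' deposited table the 268 genes with 1 to 3 proterosoma reads had a median log2 fold of -3.86 with a median standard error of 1.06. The lowest log2 fold of all genes in the authors' deposited table, -9.55, belonged to none of the 153, and 13 of its 50 lowest folds did.

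The median spread between whole-body libraries lay below the median value for counting error alone in the genes under 2 CPM and above it from 2 CPM up. A median below that value does not mean a spread smaller than counting error gives, as set out below. The coefficient of variation across the 3 whole bodies had a median of 16.8% and ran from 2.67% to 69.7%. The counting value of a gene is the root mean square that counting error alone gives, and its median was 18.6%. With 3 libraries, counting error alone leaves most genes below their counting value, so the medians are not like measures. The coefficient was above the counting value for 70 of the 153 genes (45.8%). Among all 11537 genes with at least 10 reads in each whole body, which are deeper on average, it was above for 7382. The limit of 10 reads in each library trims the spread of the rarest genes from below. Within bands of level, the median was 16.2% for the 22 genes under 1 CPM, as against 16.8% for the other genes there, and 18.4% against 18.7% from 1 to 2 CPM. It was 16.9% against 14.7% from 2 to 4 CPM, 14.3% against 11.5% from 4 to 8 CPM, 11.3% against 8.70% from 8 to 16 CPM and 15.4% against 6.78% from 16 to 32 CPM. For the genes without a proterosoma read, the median counting values were 27.3%, 21.4% and 15.6% in the bands up to 4 CPM. From 4 CPM up they were 11.5%, 7.68% and 5.42%, and 10 of the 12 most abundant genes lay above their counting value. The last 2 bands hold 8 and 5 of the genes.

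**Figure D3:**
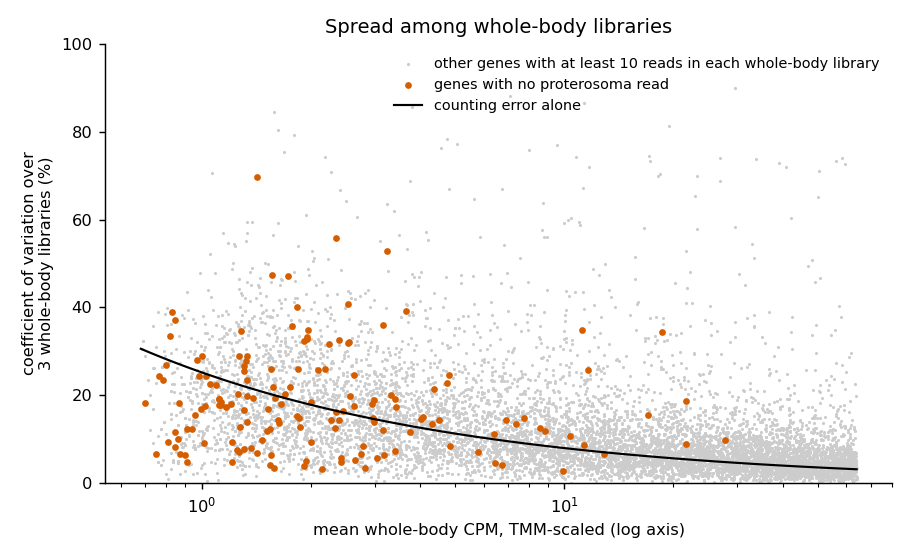
Coefficient of variation over the 3 whole-body libraries against mean whole-body CPM (log axis), for the genes without a proterosoma read and for other genes under 64 CPM with at least 10 reads in each whole body. The line is the counting value, the root mean square that counting error alone gives. Above their counting value lie 70 of the 153 genes, and a few other genes above 100% are not drawn.

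Among the 52 genes with at least 30 reads in each whole body, tetur02g04020 spread most, with 84, 35 and 66 reads or 3.11, 2.58 and 5.29 CPM. tetur13g02510 had 70, 33 and 56 reads, or 2.59, 2.43 and 4.49 CPM. In both, replicate 3 was the high library. tetur97g00020 had 423, 131 and 104 reads, or 15.7, 9.66 and 8.34 CPM, with replicate 1 high. With tetur08g06890, where replicate 3 was low, these were the 4 widest, at 34.4% to 39.2%, and they did not share a library that stood apart.

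The 4 most even genes at that depth varied less than counting error alone gives on average. tetur26g02801 had 263, 139 and 123 reads, or 9.74, 10.2 and 9.86 CPM, a coefficient of variation of 2.67%. tetur06g05380 had 79, 37 and 35 reads, tetur02g07770 had 183, 87 and 87, and tetur07g02660 had 178, 83 and 83. Their coefficients were 3.53%, 4.23% and 4.53%. Such low values among 52 genes with 3 libraries each are values at the end of a range.

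When each whole-body library was tested against the other whole bodies with edgeR's quasi-likelihood test, 0 of the 153 genes were called at an adjusted p under 0.05. All 153 were tested in each of the 3 fits. The share of all 12228 tested genes called was 0% for replicate 1, 1.54% for replicate 2 and 0.00818% for replicate 3. At an unadjusted p under 0.05, 2, 9 and 11 of the 153 genes passed for replicates 1, 2 and 3, which is 1.31%, 5.88% and 7.19% of them. Over all tested genes these shares were 1.95%, 6.42% and 8.95%. The DESeq2 Wald test also called 0 of the 153 in each of the 3 tests, where it called 0, 84 and 26 of all 12228 genes, so few or no calls among 153 genes would be met at those rates. The median log2 difference of the 153 genes was -0.10, -0.01 and 0.07 for replicates 1, 2 and 3, beside 0.00 for all genes. Replicate 3 was the highest library for 68 of the 153 genes, replicate 2 for 51 and replicate 1 for 34, which is 44.4%, 33.3% and 22.2%. Over all 11537 genes with at least 10 reads in each whole body these shares were 36.7%, 33.2% and 30.1%, and among the 268 genes with 1 to 3 proterosoma reads 46.6%, 26.9% and 26.5%.

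The 153 genes were scattered over the genome assembly. Each identifier holds a scaffold number and a serial number, which give an order along the scaffold that was not checked against an annotation. The genes sat on 42 of the 428 scaffolds, with 20 on scaffold 2, 19 on scaffold 1 and 10 on scaffold 9, while 17 scaffolds held a single one. Most scaffolds are small: only 43 held at least 10 genes with at least 10 reads in each whole body. Scaffolds 1 and 2 together held 25.5% of the set and 17.4% of the 11537 genes with at least 10 reads in each whole body. Scaffold 35 held 6 of the set among 80 such genes (7.50%), scaffold 18 held 7 of 247 (2.83%) and scaffold 16 held 7 of 232 (3.02%), against 1.33% overall. Others lay below it, such as scaffold 5 with 3 of 600 (0.500%), scaffold 11 with 3 of 439 (0.683%) and scaffold 4 with 5 of 626 (0.799%). The highest shares were on scaffolds with few such genes, such as scaffold 47 with 2 of 7. These shares are descriptions, with no test. Serial numbers that are not a multiple of 10 were found in 10 of the 153 identifiers (6.54%), in 1.77% of the 11537 and in 4.92% of all 18020.

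Most of the genes had no next-door neighbour from the set. A run is made of genes with consecutive identifiers in the table on 1 scaffold. There were 8 runs of 2 genes and no run of 3 or more, so 16 of the 153 genes (10.5%) had a neighbour from the set. The set makes up 0.849% of the table. That share is for 1 place, while a gene has up to 2 next-door places, so these percentages are not directly comparable. The 10.5% is the larger also when both places are counted, as a description with no test of the difference. The pairs lay on scaffolds 1, 2, 7, 10, 16, 26, 35 and 38. In each pair at least 1 gene had fewer than 20 reads in some whole-body library, so 0 genes had a neighbour from the set when at least 20 reads were asked for. The genes of these pairs and of the groups that follow were named after their values had been seen.

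In the pair on scaffold 2, tetur02g09400 had 95, 47 and 53 whole-body reads and its neighbour tetur02g09410 had 45, 20 and 19. On scaffold 1, tetur01g01290 had 63, 44 and 42 reads and tetur01g01280 had 32, 24 and 13. On scaffold 10, tetur10g05230 had 40, 32 and 36 reads and tetur10g05240 had 41, 27 and 18. The pairs were thus of modest level, with 1.33 to 3.75 CPM in these 6 genes, and only those on scaffolds 16 and 26 held a gene of the top 12. Near-identical adjacent copies could share or lose reads, since how such reads were treated is not stated in the sources at hand.

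Allowing up to 5 places between genes of the set gave 4 groups of at least 3 genes, with 13 of the 153 genes in all, on scaffolds 1, 16, 26 and 35. The group on scaffold 16 held 4 of them among 9 consecutive identifiers. Its first gene, tetur16g03680, had 188, 90 and 106 whole-body reads (6.96, 6.64 and 8.50 CPM). The pair tetur16g03730 and tetur16g03740 followed, with 64, 11 and 25 reads and with 358, 111 and 169 reads. The last, tetur16g03780, had 48, 10 and 27 reads. In the pair and in tetur16g03780, replicate 2 was the lowest library, at 0.811, 8.18 and 0.737 CPM against 1.78 to 13.5 CPM in the other whole bodies.

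The genes lying between them on scaffold 16 did not all behave alike. tetur16g03770, with 972, 458 and 531 whole-body reads, had 10 proterosoma reads, a log2 fold of -5.76 by the edgeR fit (adjusted p = 8.68e-06). tetur16g03690 had 41, 14 and 41 whole-body reads and 2 proterosoma reads. By contrast tetur16g03760, between tetur16g03740 and tetur16g03770, had 368, 151 and 170 whole-body reads and 138 proterosoma reads, and its log2 fold of -0.44 did not pass the edgeR test (adjusted p = 0.0609). Reads in the proterosoma library thus stopped and resumed between next-door identifiers. tetur16g03710 and tetur16g03720 had no read in any library.

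**Figure D4:**
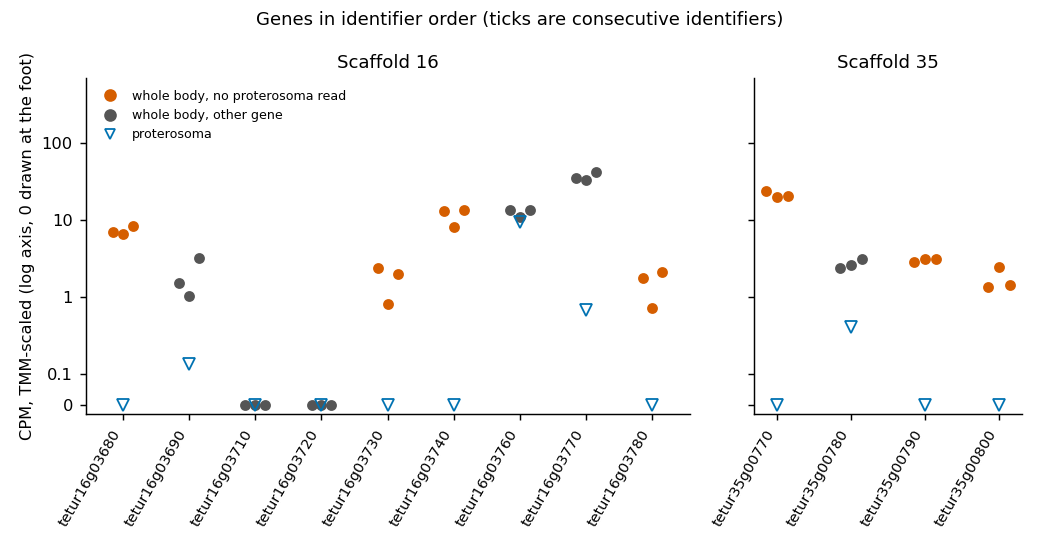
Whole-body levels (3 filled points per gene, 1 per library) and proterosoma level (open triangle) of consecutive identifiers on scaffolds 16 and 35, in CPM on a log axis with 0 drawn at the foot. Genes without a proterosoma read stand beside genes that kept some, such as tetur16g03760 with 9.44 CPM in the proterosoma library.

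On scaffold 35, tetur35g00770, tetur35g00790 and tetur35g00800 had no proterosoma read and lay within 4 consecutive identifiers. tetur35g00790 had 77, 43 and 39 whole-body reads (2.85, 3.17 and 3.13 CPM), and tetur35g00800 had 37, 34 and 18 (1.37, 2.51 and 1.44 CPM). The gene between tetur35g00770 and tetur35g00790, tetur35g00780, had 64, 36 and 39 whole-body reads and 6 proterosoma reads, a log2 fold of -2.68 (edgeR adjusted p = 0.00151). A second cluster on this scaffold held tetur35g01420 with 54, 20 and 15 reads and tetur35g01440 with 55, 37 and 30. Between these, tetur35g01430 had 47, 27 and 18 whole-body reads and 1 proterosoma read.

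The group on scaffold 26 held tetur26g02801, tetur26g02802 and tetur26g02831 among 7 identifiers, all with serial numbers that are not a multiple of 10. tetur26g02802 had 19, 14 and 16 whole-body reads, and tetur26g02831 had 62, 30 and 42. The group on scaffold 1 held tetur01g07990, tetur01g08050 and tetur01g08080 among 8 identifiers, at 1.12, 1.54 and 1.29 CPM. Between the last 2, tetur01g08070 had 516, 276 and 216 whole-body reads and 5 proterosoma reads, a log2 fold of -5.76 (edgeR adjusted p = 8.86e-06). The strongly depleted neighbours tetur01g08070 and tetur16g03770 thus had 5 and 10 proterosoma reads, at a higher whole-body level than the genes of the set in their groups.

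Next-door genes outside the set were called lower in the front body in a larger share of cases than all genes outside the set, as a description with no test of the difference. Of 278 such neighbours, 196 were tested and 106 (54.1%) were called lower in the proterosoma library by edgeR, against 39.7% of the 13125 tested genes outside the set. At least 2-fold lower were 44.9% of them, against 29.2%, and called higher were 29.1%, against 41.5%. Their median log2 fold was -0.96, or -0.93 with genes at 0 proterosoma reads set at their bound, against 0.00 for all tested genes outside the set. A gene 2 places away was called lower in 45.0% of cases, 3 places away in 44.4%, 4 places away in 41.0% and 5 places away in 34.6%. The difference from other genes was therefore largest for the immediate neighbours.

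**Figure D5:**
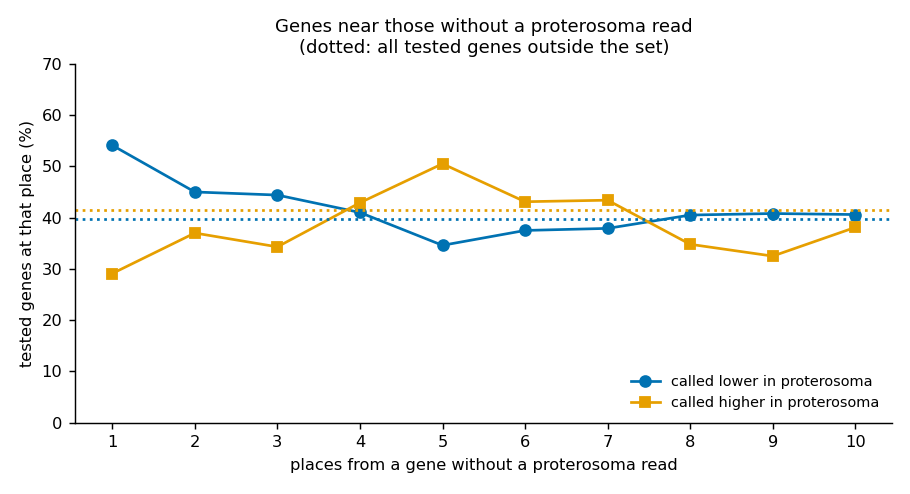
Percentage of tested genes called lower or higher in the proterosoma library at 1 to 10 places from a gene without a proterosoma read, genes of the set left out. Dotted lines give all tested genes outside the set (39.7% lower, 41.5% higher); at 1 place the values are 54.1% and 29.1%.

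Neighbours were of lower level than other genes, with a median whole-body mean of 4.85 CPM against 17.0 CPM. Within each level the difference had the same direction. Under 2 CPM, 32.4% of 68 neighbours and 15.3% of 2859 genes outside the set were called lower. From 2 to 8 CPM the shares were 56.1% of 41 and 30.5% of 2191, from 8 to 32 CPM 57.1% of 35 and 39.4% of 3083, and above 32 CPM 78.8% of 52 and 57.9% of 4992. Whether neighbouring genes overlap and how the counting used strand are not stated in the sources at hand, and their part in these shares was not tested. Of the 153 genes, 95 (62.1%) had at least 1 next-door gene called lower and 50 (32.7%) at least 1 called higher, against 57.1% and 54.8% of the 11537 genes. Both next-door genes were called lower for 31 (20.3%) and higher for 8 (5.23%), against 12.3% and 11.7%. In these counts a next-door gene may itself belong to the set.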

How the data were processed

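The authors deposited raw counts of reads per gene for 4 strand-specific libraries; the submitters' processing notes name DESeq2 1.6.3, HTSeq 0.6.0 and STAR 2.5.0b. For genome build, annotation release and counting settings, the entry is: not given in the sources used here. The authors' deposited comparison holds, per the file headers, a mean normalised signal, log2 folds with standard errors, a test score and p-values; the numerator is not named, and negative log2 folds here mean lower in the proterosoma library, by the counts. Columns were matched to samples by title, and 0 were left unused.

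Counts were scaled by TMM over all 4 libraries and tested by the quasi-likelihood F test of edgeR 4.0.16 (filterByExpr, Benjamini-Hochberg over all tested genes) in R 4.3.3, with DESeq2 1.42.0 as an alternative. The comparison of body parts took its spread from whole bodies alone (2 residual degrees of freedom) and assumed that the proterosoma library varies like them; each whole body against the others left 1. The tests were tried on simulated data first. The proterosoma total of 19667380 reads, scaled by TMM, puts the limit of 3 reads at 0.205 CPM.

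The members and lists were chosen with earlier results of these data known. Named genes are the 12 most abundant, the 4 most and 4 least variable with at least 30 reads in each whole body, the 4 rarest and the 3 most abundant with 1 proterosoma read; further ones are said to be chosen later. Runs of 3 or more, genes called between whole bodies and genes in the lists fixed by product name were also to be named, but none was found or could be matched. Alternatives were other scalings, filters, tools and limits of the choice, and the omission of each whole body.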

Additional observations from a re-analysis of the deposited data

How the results depend on the processing

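Of 66 recomputed values of the comparisons, 45 stayed close to the main value and 21 moved further. Close means within 1.5 times a main count, or within the SD between libraries for the median level and the median smallest fold. For the median coefficient of variation it means within the SD of the medians without each library, which are themselves among the recomputed values. The size of the set depends on its limits: 248, 78 and 26 genes with at least 5, 20 and 50 whole-body reads, and 253 and 421 with at most 1 and 3 proterosoma reads, against 153; without each whole-body library it was 154 to 182. With library size alone the median level was 2.03 CPM against 1.85, the median smallest fold 13.3 against 9.01, and the number of genes at least 16-fold lower 63 against 34; with upper-quartile scaling the median smallest fold was 8.54. Without each whole-body library in turn, the median level was 1.75 to 1.88 CPM, the median smallest fold 8.55 to 9.16, and the median coefficient of variation 12.2% to 14.4%, against 16.8% with all 3; 2 libraries give lower coefficients than 3 by construction. In the test of whole-body replicate 2, the main fit called none of the 153 genes, but library size alone and no filter on low counts each gave some call. The share of all genes called under these settings is not at hand, so nothing is read from this change. Its cause was not tested. Genes with a neighbour from the set numbered 25 within 2 identifiers, a wider distance for the same 153 genes, against 16. They numbered 27 of 253 (10.7%) with at most 1 proterosoma read and 92 of 421 (21.9%) with at most 3. With at least 5 and 20 whole-body reads they numbered 31 of 248 and 0 of 78. These limits change how many genes are in the set. With at most 3 proterosoma reads there were 5 runs of 3 or more genes, the longest of 4, against 0 such runs in the main set. Genes with a neighbour from the set numbered 16 to 20 without each whole-body library. Under library size alone the median log2 fold of all tested genes was -0.60, and 62.2% of next-door genes were called lower against 52.2% of all; with the DESeq2 Wald test these shares were 49.5% and 36.5%. The limits on neighbours with at least 5 or 20 whole-body reads, the groups within 5 places and the omission of libraries for neighbours were chosen after seeing the data. No paired analysis was possible because there was 1 proterosoma library, with no number in its label. Depth limits the folds: 3 proterosoma reads are 0.205 CPM, and the smallest fold of the set is as low as 3.40.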
